A study of Drosophila melanogaster with 16 samples.

Results

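The trachea of female larvae of Drosophila melanogaster was compared after cigarette smoke and after air in 8 RNA sequencing libraries, 4 of smoke-exposed and 4 of air-exposed females, out of 16 in the series. The libraries were chosen by the sex and treatment in their labels, and no male library entered a fit. The smoke group held isolated tracheae of Canton S larvae exposed to mainstream smoke of 3R4F research cigarettes at an intensity of 4 puffs/min over 60 min. The control group held isolated tracheae of Canton S larvae of the same sex kept in air. Canton S is a wild-type laboratory strain, and no transgene or mutation is named for either group. Larval age, the number of animals per library and the interval between exposure and dissection do not appear in the sources used. Nothing in the labels says that replicates came from separate cultures, so every p-value measures the spread between these libraries, which may be technical.

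The larval trachea is a branched epithelial tube that carries air to all tissues. A single layer of polarised cells secretes a chitin-based cuticle and an apical protein matrix into the lumen, rests on a basement membrane, and is the first tissue that inhaled particles and gases meet. At each moult the lining is shed and replaced under the control of ecdysone, and precursor cells of the adult airway are carried within the larval tubes as imaginal cells.

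All 12 tracheal markers matched to a gene were tested. A further planned marker, btl, was not matched by name and entered no count. Of the 12, 2 were called higher and 2 lower (16.7% each), with a median log2 change of 0.0256. Over all genes tested the shares were 10.9% higher and 7.09% lower. The chitin-binding luminal protein Gasp averaged 19954 in smoke against 12825 in air as normalised counts and was called higher (limma, adjusted p = 0.00327). The transcription factor trh, which specifies tracheal fate, averaged 12894 in smoke against 9110.3 in air and was also called higher (adjusted p = 0.0433). The markers called lower were vvl, which averaged 5030 in smoke against 6560 in air, and grh, which averaged 2650 in smoke against 3540 in air. The 12 markers together took 12500 ± 913 CPM (recovered reads scaled to a common library total) in smoke and 10800 ± 1970 in air (SD, n = 4 each). Recovered reads per library ran from 15184529 to 22494089 in smoke and from 15269715 to 23434521 in air. The RNA roX1, which coats the X chromosome of males, was at 1735 ± 367 in smoke against 1388 ± 418 in air and was not called (limma, adjusted p = 0.369). The RNA roX2, of the same role, was at 1.26 to 16.7 in all 8 libraries. Genes that mark other tissues were also found, and those of the salivary gland differed most, with 7.88 ± 4.64 CPM in smoke against 191 ± 125 in air. Of 13 salivary gland markers 9 were tested and 8 were called lower, also with any 1 library left out. The filter on low values touches this count, because Sgs5bis (5.03 in smoke against 154 in air) reached the minimum only in air libraries. No share of them is therefore set against other genes. Imaginal disc markers summed to 256 ± 31.1 CPM in smoke and 446 ± 81.5 in air without overlap, and muscle markers to 6900 ± 2290 and 11700 ± 5150 with overlap. Most of the disc sum came from elB and noc, so it follows these genes more than the other disc markers. As normalised counts, elB averaged 1770 in smoke against 1670 in air and noc 2490 in smoke against 3590 in air. The highest muscle marker, Msp300, averaged 58300 in smoke against 45300 in air. Midgut markers summed to 182 ± 44.6 CPM in smoke and 537 ± 498 in air, fat body markers to 2510 ± 2180 and 3900 ± 2800, hemocyte markers to 973 ± 171 and 929 ± 368, and nervous system markers to 129 ± 20.9 and 139 ± 17.2, all with overlap. Most of the midgut sum in smoke came from LManII, at 3230 in smoke against 3020 in air. Of 30 midgut markers 10 were tested, with a median log2 change of -3.61. None was called, 4 were lower and 0 higher at an unadjusted p under 0.05, and edgeR called 2 lower. Without air replicate 2, 3 were called lower. The filter on low values touches this median, because some of these markers reached the minimum mainly in air libraries. Examples were betaTry (5.67 in smoke against 292 in air) and Jon66Ci (3.71 in smoke against 983 in air). The midgut median is therefore not set against that of other genes. Single omissions of a library ended the call on trh (7 of 8 omissions, adjusted p up to 0.108), vvl (6 of 8, up to 0.0614) and grh (4 of 8, up to 0.0605).

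**Figure D1:**
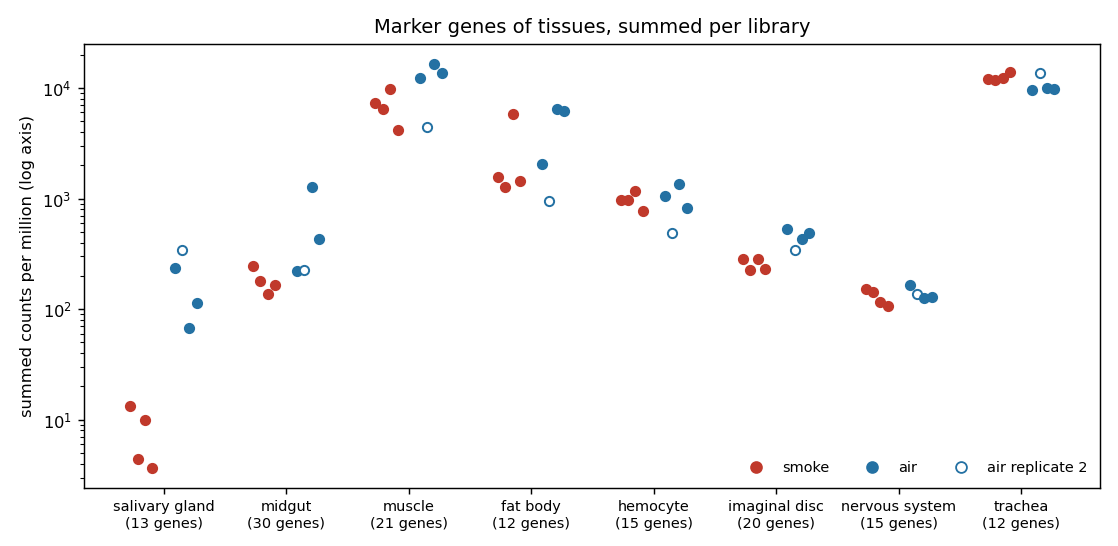
Summed CPM (log axis) of marker genes of 8 tissues in each library, smoke libraries on the left of each pair and air libraries on the right. Salivary gland and imaginal disc sums lie lower in all smoke libraries than in any air library, and air replicate 2, drawn as an open circle, lies nearer to the smoke libraries than to the other air libraries for muscle (4430), fat body (950) and trachea (13700).

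Air replicate 2 stood apart from the other air libraries. On the first principal component, which held 42.5% of the variance, the smoke libraries lay at -24.7, -36.7, -13.8 and -44.8 and the air libraries at 39.8, -9.85, 47.6 and 42.3, so that air replicate 2 lay on the smoke side of 0. On the second, with 28.2% of the variance, it lay at -63.4. A list's counts without this or another library are given where they move by over 1.5 times. The column names of replicates 1 and 2 are written in another style than those of replicates 3 and 4. Within replicates 1 and 2 alone 12 genes were called, all higher. Within replicates 3 and 4 alone 799 were called (567 higher and 232 lower). With the naming style as a term in the fit of all libraries 2514 were called (1399 higher and 1115 lower).

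Smoke changed many genes by small amounts and a few by large ones. Of 8877 genes with a normalised count of at least 10 in at least 4 libraries, 1599 differed at an adjusted p under 0.05 (limma, two-sided), which is 18.0% of those tested. The higher group held 970 genes (10.9%) and the lower group 629 (7.09%). The median size of a called change was 0.606 on the log2 scale, and 764 of the called genes moved by less than 1.5-fold. Rises of at least 2-fold numbered 292 (3.29% of genes tested) and falls of that size 134 (1.51%). Changes of at least 8-fold were called for 31 higher and 24 lower genes. All 4 smoke libraries lay above all 4 air libraries for 1215 genes (13.7%) and below all of them for 956 (10.8%). Without air replicate 2, 2009 genes were called, 1153 higher and 856 lower. Leaving out smoke replicate 3, smoke replicate 4 or air replicate 4 gave 1015, 1005 and 1060 calls, of which 356, 345 and 354 were lower, and leaving out smoke replicate 2 gave 377 lower. Of the 1599 called genes, 1197 (74.9%) were on none of the 76 lists of functions, stress responses and tissues used here, and 457 had no name beyond a CG number.

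The balance of rises and falls depended on the scaling of the libraries. With values as deposited, 60.7% of the called genes were higher in smoke, while over all genes tested the log2 change had a median of -0.0177. With the libraries rescaled to the same total, the median was -0.133 and 38.2% of the called genes were higher (644 against 1042 lower), while a common upper quartile gave 50.4% (834 against 821). All 1599 calls kept their direction under both. In the authors' deposited table, 2123 of the genes tested here had an adjusted p under 0.05. These included 1596 of the calls made here, which are 99.8% of these calls and 75.2% of the authors', and none had the opposite sign.

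**Figure D2:**
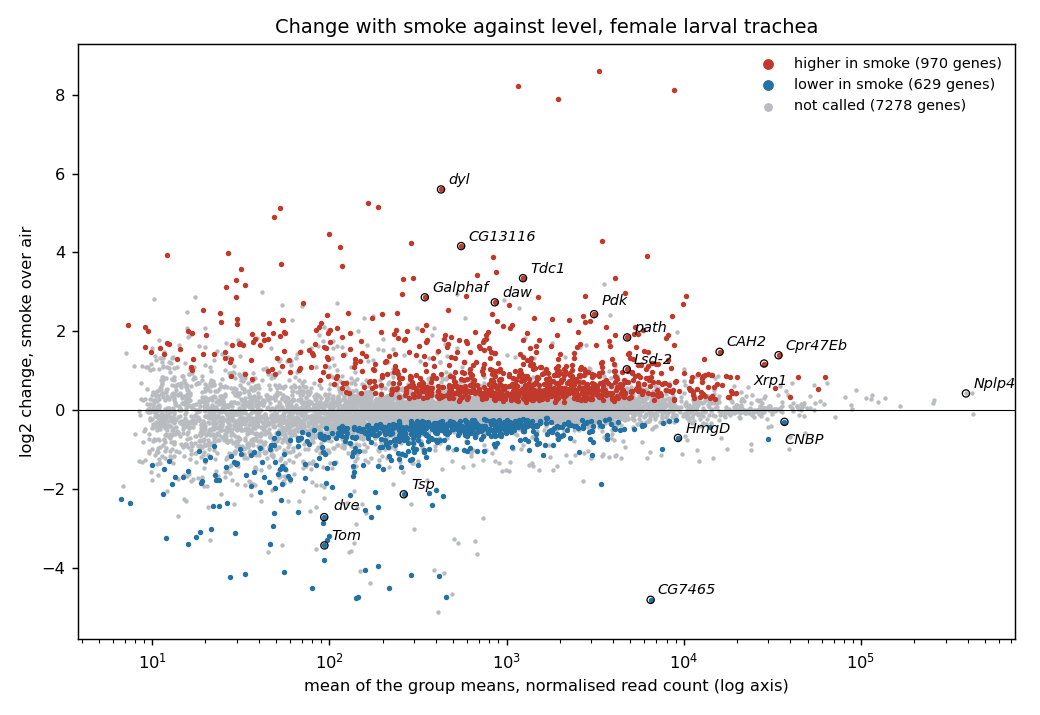
Log2 change of smoke over air for each of the 8877 genes tested, against the mean of the 2 group means as normalised read count (log axis). Genes called higher (970) are red, genes called lower (629) blue and all others grey, and the genes with a name beside them are circled. The genes farthest to the right, such as Nplp4, were not called, and CG7465 lies to the right of most other large falls.

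The naming rules left out the stress and tissue lists and the Hsp, Gst, Cyp, Mtn and Prx families. For fold and level they took only called genes whose groups did not overlap. Absence of overlap in these genes was therefore a condition of the choice. Under these rules, the largest rise was in dusky-like (dyl, FBgn0066365), which encodes a zona pellucida domain protein of the apical matrix. Its normalised counts were 656, 538, 712 and 1447 in the smoke libraries, against 8.51, 17.6, 13.9 and 24.3 in the air libraries. Every smoke library was far above every air library, and the log2 change was 5.60 ± 0.38 (SE, limma adjusted p = 0.000166). Of 14 apical matrix genes tested out of 28 in the table, 3 were higher and 3 lower, with a median log2 change of -0.23. These shares were 21.4% each, against 10.9% higher and 7.09% lower among all genes. Among the called members nompA, which joins sensory dendrites to the cuticle, had a log2 change of 1.39 ± 0.25 (adjusted p = 0.00889) and nyo, another zona pellucida protein, one of -1.42 ± 0.33 (adjusted p = 0.0223). The call on nyo was lost when smoke replicate 3, smoke replicate 4 or air replicate 4 was left out. The apical matrix count was 2 higher and 0 lower without smoke replicate 4 or air replicate 4, and 2 higher and 1 lower without smoke replicate 2 or 3. In bulk tissue, fewer cells of a type and less RNA per cell cannot be told apart, here and in all results that follow.

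A group of enzymes that use tyrosine or its product dopamine were among the 15 largest rises. The gene ple encodes tyrosine hydroxylase, the first enzyme of dopamine synthesis, and its normalised counts were 1815, 1455, 2179.9 and 4096 in the smoke libraries, against 300, 723, 476 and 357 in the air libraries, without overlap (log2 change 2.33 ± 0.36, adjusted p = 0.00513). Tdc1 encodes a tyrosine decarboxylase, which makes tyramine, and stood at 1663, 2565, 2090.3 and 2694 in the smoke libraries, against 258, 309, 149 and 187 in the air libraries (log2 change 3.35 ± 0.25, adjusted p = 0.000242). The gene e (ebony) encodes the enzyme that couples dopamine to beta-alanine for cuticle tanning. It was at 624, 869, 436 and 4321 in the smoke libraries, against 37.9, 356, 40.3 and 36.4 in the air libraries, so that smoke replicate 4 and air replicate 2 stood far above their groups. Its log2 change was 3.88 ± 0.92 (adjusted p = 0.0229). Leaving out smoke replicate 2, air replicate 1, air replicate 3 or air replicate 4 took the adjusted p to between 0.055 and 0.064, and edgeR did not call it. Some yellow family genes, whose proteins act in melanin formation and cuticle hardening, also rose. The first, yellow-e, averaged 1953 ± 254 in smoke against 947 ± 272 in air (adjusted p = 0.00876), and the second, yellow-b, averaged 4705 in smoke against 2107 in air (log2 change 1.18 ± 0.25, adjusted p = 0.0162). A further member of the family, yellow-e3, fell at a low level, 9.22 in smoke against 36.6 in air (log2 change -1.79 ± 0.42, adjusted p = 0.0223). The call on yellow-e3 was lost on leaving out 1 library in 5 of 8 cases (adjusted p up to 0.066).

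Genes of fuel use and transport formed a further part of the largest rises. Tret1-1, a trehalose transporter that takes up the blood sugar of insects, was at 2081, 1635, 1821 and 3404 in the smoke libraries, against 166, 102, 308 and 379 in the air libraries, without overlap (log2 change 3.34 ± 0.42, adjusted p = 0.00207). Its close copy Tret1-2 was far lower, 15.6 in smoke against 3.37 in air, with a log2 change of 2.01 ± 0.47 (adjusted p = 0.0223), and reads that match both copies may have been divided between them by the counting. Pdk, the kinase that switches off pyruvate dehydrogenase, was at 6422, 4573, 4970 and 5116 in the smoke libraries, against 841, 1113, 940.3 and 995 in the air libraries. The Pdk values were tight within each group, and the log2 change was 2.43 ± 0.13 (adjusted p = 6.06e-05). Adenylate kinase 1 (Ak1), which equilibrates adenine nucleotides, averaged 1558 ± 197 in smoke against 361 ± 99.9 in air (SD, n = 4 each, log2 change 2.14 ± 0.19, adjusted p = 0.000547). The glycolysis list itself had no called gene among 17 tested, where 2 were higher and 1 was lower at an unadjusted p under 0.05 and edgeR called none, and its median log2 change was 0.00367. The glycolysis count was 1 lower at the same total. Within the other 20 genes of the TCA cycle and pyruvate entry that were tested, only ScsbetaG was called, at 836 in smoke against 988 in air (log2 change -0.24 ± 0.07, adjusted p = 0.041). With 1 library left out, 4 to 7 of 8 omissions ended the calls on Tret1-2 and ScsbetaG (adjusted p up to 0.102).

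Ligands, receptors and their couplers made up the signalling genes among the largest rises. Dawdle (daw), a ligand of the activin branch of TGF-beta signalling, was at 1412, 1311, 1685 and 1511 in the smoke libraries, against 154, 335, 316 and 146 in the air libraries, with no overlap (log2 change 2.73 ± 0.29, adjusted p = 0.00102). The G protein alpha subunit Galphaf was at 508, 644, 622 and 659.6 in the smoke libraries, against 64.2, 93.5, 98.3 and 78.4 in the air libraries, and the values within each group lay close together (log2 change 2.86 ± 0.16, adjusted p = 6.15e-05). ETHR, the receptor of ecdysis-triggering hormone, which starts the shedding of the cuticle at a moult, was at 1251, 1416, 1800.3 and 1407 in the smoke libraries, against 295, 245, 357 and 334 in the air libraries (log2 change 2.25 ± 0.15, adjusted p = 0.000154). All smoke libraries lay far above all air libraries. PK1-R, a receptor of pyrokinin peptides, stood at a lower level with a wider spread, 268, 273, 411 and 184 in the smoke libraries, against 101, 16.9, 92.01 and 48.6 in the air libraries (log2 change 2.35 ± 0.54, adjusted p = 0.0204). Its adjusted p lay between 0.054 and 0.058 without smoke replicate 2, smoke replicate 3 or air replicate 4.

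The rest of the 15 were of mixed roles. Ets21C, an ETS domain transcription factor, was at 788, 1362, 1513 and 2666 in the smoke libraries, against 68.8, 337, 63.02 and 173 in the air libraries, without overlap but with a wide spread (log2 change 3.50 ± 0.58, adjusted p = 0.00616). Inscuteable (insc), an adaptor that orients the spindle in asymmetric divisions, averaged 1392 ± 315 in smoke against 263 ± 98.4 in air (log2 change 2.44 ± 0.26, adjusted p = 0.00097). Dgp-1, a GTP-binding protein, averaged 3729.5 ± 792 in smoke against 753 ± 52.4 in air (log2 change 2.29 ± 0.15, adjusted p = 0.000128). Takeout (to), a secreted carrier-like protein linked to feeding and the clock, was at 588, 809, 1217 and 428 in the smoke libraries, against 268, 23.8, 129 and 259.5 in the air libraries (log2 change 2.53 ± 0.74, adjusted p = 0.0491). The takeout call was lost without any 1 of 6 libraries (all smoke libraries, air replicate 3 and air replicate 4), where the adjusted p ran from 0.054 to 0.121, and with edgeR. Of genes known only by a CG number, CG13116 was at 839, 826, 1097 and 1406 in the smoke libraries, against 29.4, 130.3, 32.8 and 77.3 in the air libraries (log2 change 4.16 ± 0.46, adjusted p = 0.00135). CG15673 averaged 1256 ± 434 in smoke against 114 ± 34.98 in air (log2 change 3.44 ± 0.28, adjusted p = 0.00035). CG6026 averaged 528 ± 362 in smoke against 67.4 ± 79.9 in air (log2 change 3.35 ± 0.70, adjusted p = 0.0147).

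**Figure D3:**
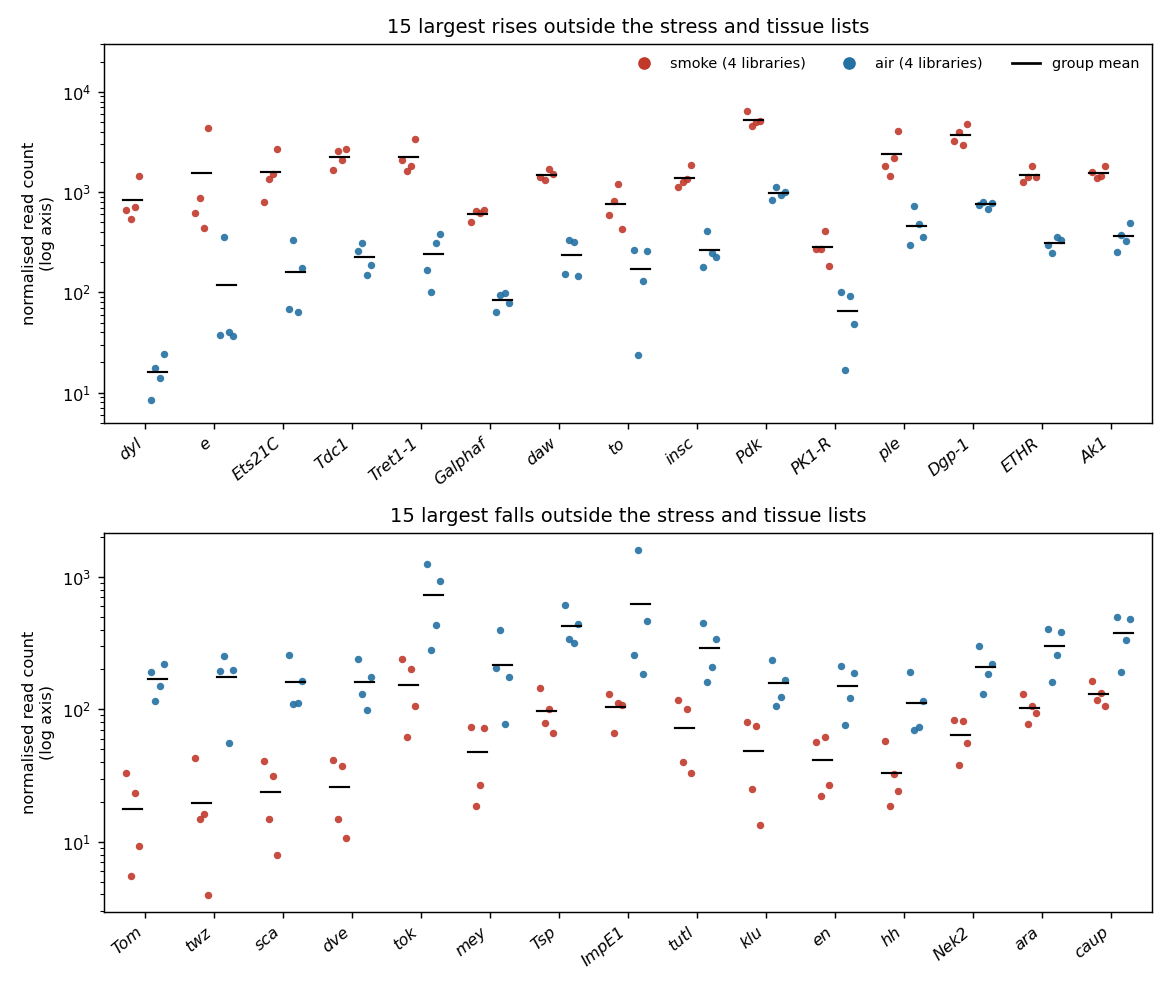
Normalised read count (log axis) in each of the 8 libraries for the 15 largest rises (upper panel) and the 15 largest falls (lower panel) among genes with a name beyond a CG number and outside the stress and tissue lists, smoke in red on the left and air in blue on the right of each gene, with the group mean as a line. The genes were chosen for groups that do not overlap, and the Hsp, Gst, Cyp, Mtn and Prx families were left out. Rising genes reach means up to 5270 in smoke (Pdk), while no falling gene exceeds a mean of 724 in air (tok).

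Patterning and cell fate genes were among the 15 largest falls of genes with a name beyond a CG number. Twin of m4 (Tom), a Bearded family inhibitor of Notch signalling, was at 32.8, 5.56, 23.3 and 9.33 in the smoke libraries, against 191, 117, 151 and 221 in the air libraries, without overlap (log2 change -3.44 ± 0.51, adjusted p = 0.00415). Scabrous (sca), a secreted protein that spaces sensory organs, was at 40.4, 14.8, 31.4 and 7.995 in the smoke libraries, against 259, 110.4, 111 and 162 in the air libraries (log2 change -2.86 ± 0.51, adjusted p = 0.00803). Defective proventriculus (dve), a homeodomain factor, was at 41.2, 14.8, 37.3 and 10.7 in the smoke libraries, against 239.7, 130.3, 98.3 and 177 in the air libraries (log2 change -2.72 ± 0.47, adjusted p = 0.00739). In these genes smoke replicates 2 and 4 had the lowest values. The Iroquois homeodomain genes ara and caup fell alike. The ara mean was 102 ± 22.9 in smoke against 302 ± 114 in air (log2 change -1.49 ± 0.30, adjusted p = 0.0133). The caup mean was 130 ± 25.4 in smoke against 375 ± 143 in air (log2 change -1.45 ± 0.30, adjusted p = 0.0145). The posterior compartment genes en (engrailed, a homeodomain factor) and hh (the Hedgehog ligand) both fell. Normalised counts of en averaged 41.8 ± 20.2 in smoke against 149 ± 61.9 in air (log2 change -1.84 ± 0.43, adjusted p = 0.022). Mean counts of hh were 33.1 ± 17.1 in smoke against 112 ± 56.1 in air (log2 change -1.73 ± 0.42, adjusted p = 0.0256). Calls on en and hh were lost without smoke replicate 2, smoke replicate 4, air replicate 1 or air replicate 4, where adjusted p reached at most 0.064 for en and 0.072 for hh, and that on hh also without smoke replicate 3 (0.058). The zinc finger gene klu had an adjusted p of 0.0484 that 5 single omissions (smoke replicates 2 and 4, air replicates 1, 3 and 4) raised to between 0.077 and 0.116.

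Secreted and surface proteins made up most of the rest of the falls. Thrombospondin (Tsp), an extracellular integrin ligand of tendon and muscle attachment, was at 144, 78.8, 100.2 and 66.6 in the smoke libraries, against 618, 339.6, 318 and 441 in the air libraries, without overlap (log2 change -2.14 ± 0.29, adjusted p = 0.00267). The tolloid-related protease tok averaged 152 ± 81.7 in smoke against 724 ± 448 in air (log2 change -2.19 ± 0.57, adjusted p = 0.0322). The immunoglobulin superfamily protein tutl averaged 72.6 ± 42.2 in smoke against 290 ± 131 in air (log2 change -2.07 ± 0.49, adjusted p = 0.022). The zona pellucida protein mey was at 47.8 ± 29.3 in smoke against 215 ± 135 in air (log2 change -2.15 ± 0.60, adjusted p = 0.041). ImpE1, an ecdysone-inducible membrane protein, averaged 104 ± 27.02 in smoke against 625 ± 656 in air (log2 change -2.09 ± 0.61, adjusted p = 0.0488). Calls on tok, tutl, mey and ImpE1 were each lost on leaving out any 1 of 4 to 6 libraries. The BTB domain gene twz was at 42.9, 14.8, 16.3 and 3.998 in the smoke libraries, against 196, 253, 55.5 and 197 in the air libraries (log2 change -3.30 ± 0.70, adjusted p = 0.0153). The mitotic kinase gene Nek2 averaged 64.5 ± 21.5 in smoke against 208 ± 71.2 in air (log2 change -1.68 ± 0.32, adjusted p = 0.0106). The largest fall of a gene with only a CG number was that of CG7465, at 48.8, 156, 578 and 328 in the smoke libraries, against 27692, 1647, 993 and 20592 in the air libraries (log2 change -4.82 ± 1.23, adjusted p = 0.0308). In CG7465 air replicates 1 and 4 were far above air replicates 2 and 3, and the call was lost without smoke replicate 1, 2 or 4 or air replicate 1 or 4 (adjusted p up to 0.078). CG7606 averaged 9.67 ± 6.21 in smoke against 176 ± 159 in air and CG12310 19.8 ± 13.7 in smoke against 179 ± 97.7 in air (adjusted p = 0.00865 and 0.00961).

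Some markers of imaginal discs were also lower. Of 20 marker genes 17 were tested, 7 were lower (41.2%, against 7.09% of all genes) and none higher, with a median log2 change of -1.52. With edgeR 7 were also called lower and none higher. The wing genes vg and nub were both lower. Mean counts of vg were 56.3 in smoke against 319 in air (log2 change -2.46 ± 0.62, adjusted p = 0.0285). For nub the mean was 48.3 in smoke against 294 in air (log2 change -2.71 ± 0.65, adjusted p = 0.0232). The trunk gene tsh averaged 161 in smoke against 639.5 in air (log2 change -2.03 ± 0.46, adjusted p = 0.0189). Only elB and Poxn had higher means in smoke, 1770 in smoke against 1670 in air and 59.5 in smoke against 50.5 in air. The disc marker count was 0 lower without air replicate 4, 1 lower without smoke replicate 2 or 4, and 2 lower without air replicate 1. It was 11 lower without air replicate 2. Of 19 muscle markers tested none was called with all libraries (1 was lower and none higher at an unadjusted p under 0.05, and edgeR called none), at a median log2 change of -1.07. Without air replicate 2, 14 were lower. The part of disc, muscle or salivary gland RNA in the falls of patterning and surface genes was not tested. Single omissions of a library ended the calls on vg, nub and tsh (3 to 6 of 8 omissions, adjusted p up to 0.0774).

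Counts per kb of exon allow levels to be compared between genes. Left out of this ranking were genes with only a CG number, stress and tissue list genes, and the Hsp, Gst, Cyp, Mtn and Prx families. Genes without an exon length could not be ranked. Only called genes whose groups did not overlap entered the ranking, so absence of overlap was a condition of the choice. Within it, the largest changes in level were in other genes than the largest fold changes. Cuticle proteins with a chitin-binding Cpr domain gave 4 of the 8 largest rises in level among genes with a name. Cpr47Eb had a normalised count of 33948, 51094, 61063 and 51349 in the smoke libraries, against 16744, 12147, 26354 and 21473 in the air libraries, without overlap, and per kb of exon it was at 60421 in smoke against 23475 in air (log2 change 1.39 ± 0.27, adjusted p = 0.0105). Per kb of exon, Cpr49Ag was at 24797 in smoke against 14041 in air, Cpr51A at 14934 in smoke against 6519.8 in air and Cpr92F at 6578 in smoke against 1969.5 in air, with log2 changes of 0.80 ± 0.16, 1.18 ± 0.18 and 1.82 ± 0.30 (adjusted p = 0.0114, 0.00443 and 0.00623). CAH2, a carbonic anhydrase, which interconverts carbon dioxide and bicarbonate, had normalised counts of 24112, 24580, 18638 and 25427 in the smoke libraries, against 7598, 11767, 5118 and 10261 in the air libraries (log2 change 1.48 ± 0.25, adjusted p = 0.00669). The lowest smoke value of CAH2 was well above the highest air value. Waterproof (wat), a fatty acyl-CoA reductase that tracheae need to fill with gas, was at 18230, 20282, 17130 and 17831 in the smoke libraries, against 7773, 8586, 6237 and 7733 in the air libraries (log2 change 1.28 ± 0.11, adjusted p = 0.000424), which per kb was 8078 in smoke against 3334 in air. The bZIP transcription factor Xrp1 was at 34686, 36148, 41515 and 45463 in the smoke libraries, against 16271, 16135, 18699 and 18302 in the air libraries (log2 change 1.18 ± 0.11, adjusted p = 0.000658). The Ly6 family protein bero changed by 0.51 ± 0.13 on the log2 scale (adjusted p = 0.0305), at 15797 in smoke against 11080 in air per kb, and 4 single omissions (smoke replicates 3 and 4, air replicates 1 and 4) gave an adjusted p of 0.052 to 0.082.

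Among the genes so ranked, the 8 largest falls in level included chromatin proteins. CG7465 given above, which was outside the ranking, fell further, to 246 in smoke against 11306 in air per kb of exon. The chromatin protein HmgD was at 7329, 6787, 7591 and 6449 in the smoke libraries, against 13007, 10310, 11711 and 11059 in the air libraries (log2 change -0.71 ± 0.09, adjusted p = 0.00267). His2Av, the variant histone H2A, was at 3681, 3648, 4150.2 and 3887 in the smoke libraries, against 5426, 4942, 5676 and 5509 in the air libraries (log2 change -0.49 ± 0.07, adjusted p = 0.00453). In both genes each smoke library was below each air library, which the ranking required. Su(var)205, which encodes heterochromatin protein HP1a, averaged 2975 ± 141 in smoke against 3944 ± 275 in air (log2 change -0.41 ± 0.07, adjusted p = 0.00889). Sumo, the small ubiquitin-like modifier, averaged 4398 ± 481 in smoke against 6069 ± 389 in air (log2 change -0.47 ± 0.09, adjusted p = 0.0129). The nucleolar protein gene Non2 had a log2 change of -0.51 ± 0.11 (adjusted p = 0.0182). Expression of fax, whose loss disturbs axon growth, averaged 4993 ± 1150.3 in smoke against 10124 ± 2829.6 in air (adjusted p = 0.019). The nucleic acid binding protein CNBP, at 13221 in smoke against 16284 in air per kb, changed by -0.30 ± 0.08 on the log2 scale (adjusted p = 0.0348), and the histone chaperone Nlp by -0.26 ± 0.07 (adjusted p = 0.03). Leaving out any 1 of the 8 libraries took CNBP past the threshold (0.051 to 0.086). Any 1 of 6 did so for Nlp (0.059 to 0.079), any of smoke replicates 2, 3 and 4 for fax (0.055 to 0.056), and smoke replicate 2 or air replicate 4 for Non2 (0.053 and 0.054).

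Among genes with an exon length, none of the 6 with the highest level per kb was called. They were Nplp4, a neuropeptide-like precursor, the large mitochondrial ribosomal RNA mt:lrRNA, CG11370, the ribosomal protein gene RpL41, CG13678 and Tsf1, which encodes the iron carrier transferrin. Per kb of exon Nplp4 was at 830330 in smoke against 651330 in air and Tsf1 at 96929 in smoke against 83475 in air, with log2 changes of 0.42 ± 0.32 and 0.24 ± 0.24 (adjusted p = 0.406 and 0.521). For CG11370, values ran from 205430 to 894350 in smoke and from 143210 to 602750 in air, and the groups overlapped. RpL41 was lower in every smoke library, 44907, 46135, 43092 and 45348 in the smoke libraries, against 49502, 49697, 49851 and 50927 in the air libraries, with a log2 change of -0.16 ± 0.08 and an adjusted p of 0.215.

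**Figure D4:**
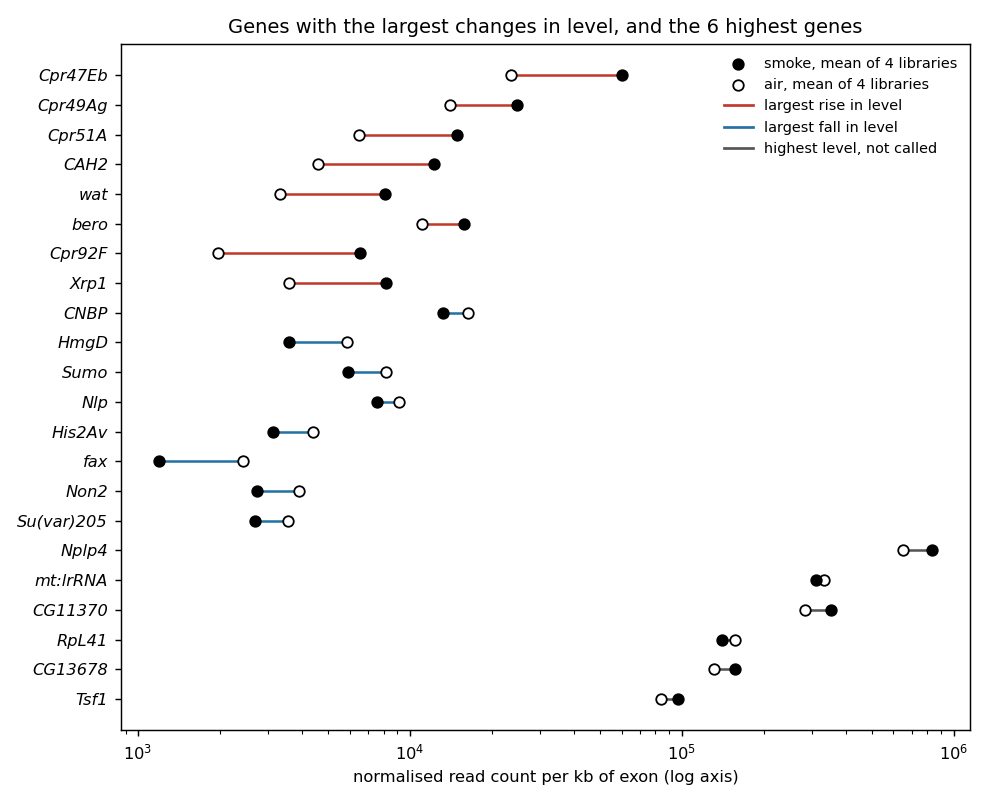
Mean normalised read count per kb of exon (log axis) in smoke (filled circles) and air (open circles) for the 8 largest rises and the 8 largest falls in level among genes with a name beyond a CG number, and the 6 genes with the highest level. The rises and falls leave out the stress and tissue lists and the Hsp, Gst, Cyp, Mtn and Prx families. They were chosen from called genes with groups that do not overlap, and no gene without an exon length was ranked. The line runs from air to smoke, red for rises, blue for falls and grey for genes not called. Among the 16 called genes drawn, Cpr47Eb has the largest difference in level, with 60421 in smoke against 23475 in air.

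Many genes of lipid synthesis and storage rose. Of 30 genes tested out of 33 in the list of fatty acid synthesis, elongation and storage, 13 were higher (43.3%, against 10.9% of all genes) and none lower, with a median log2 change of 0.438 against -0.0177 for all genes (edgeR called 13 higher and 1 lower). Lsd-2, a perilipin that coats lipid droplets, was at 6391, 6259, 6488 and 6492 in the smoke libraries, against 2912, 3478, 2972 and 3193 in the air libraries, tight in both groups and without overlap (log2 change 1.03 ± 0.07, adjusted p = 0.000196). Lipin (Lpin), which makes diacylglycerol from phosphatidate, was at 2878, 2778, 3229 and 3031 in the smoke libraries, against 1522, 1318, 1834 and 1606 in the air libraries (log2 change 0.93 ± 0.11, adjusted p = 0.00151). Other called members were chosen after their values were seen. The fatty acid desaturase Desat1 averaged 13644 in smoke against 8196 in air (log2 change 0.73 ± 0.11, adjusted p = 0.00464). The acyl-CoA synthetase Acsl averaged 7187 in smoke against 3891 in air (log2 change 0.89 ± 0.16, adjusted p = 0.00889) and the ATP citrate lyase ATPCL 7281 in smoke against 5348 in air (log2 change 0.44 ± 0.10, adjusted p = 0.0212). The other perilipin Lsd-1 and the droplet lipases bmm and Hsl, which act in storage and in its release, were all higher as well, with log2 changes of 1.46 ± 0.23, 1.47 ± 0.29 and 0.51 ± 0.12 (adjusted p = 0.00532, 0.0117 and 0.0233). Single omissions left 11 to 13 higher. The calls on ATPCL and Hsl were each lost on leaving out 1 library in 3 to 5 of 8 cases (adjusted p up to 0.0678).

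In the list of phospholipid, sphingolipid and sterol genes, 8 of 26 tested were higher (30.8%, against 10.9% of all genes) and none lower. The median was 0.18. The enzymes that activate choline and ethanolamine for membrane phospholipids, Pcyt1 and Pect, were both higher. For Pcyt1 the mean was 3584 ± 627 in smoke against 1680.5 ± 179 in air (log2 change 1.08 ± 0.14, adjusted p = 0.00241). In the case of Pect the mean was 1295 ± 44.5 in smoke against 853 ± 75.5 in air (log2 change 0.60 ± 0.08, adjusted p = 0.00243). SCAP, the escort of the lipogenic factor SREBP, averaged 2795 ± 201 in smoke against 1804 ± 156 in air (log2 change 0.63 ± 0.09, adjusted p = 0.00282). The membrane lipid count was 3 higher and 0 lower without smoke replicate 3, 3 higher and 1 lower without smoke replicate 4, and 4 higher and 0 lower without smoke replicate 1 or 2 or air replicate 1 or 4. It was 5 higher and 0 lower without air replicate 3, and 4 higher and 1 lower at the same total. Fat body markers, from the main lipid-storing tissue, summed to 2510 CPM in smoke against 3900 in air, with overlap, and their part in the lipid counts was not tested.

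Transport across membranes formed the next group. Of 22 amino acid and solute carriers tested, 5 were higher (22.7%) and none lower. The carrier count was 9 higher and 1 lower without air replicate 2. Slimfast (slif), a cationic amino acid transporter, was at 2232, 2252, 2027 and 2892 in the smoke libraries, against 625, 1062, 595 and 535 in the air libraries (log2 change 1.78 ± 0.22, adjusted p = 0.00185). The groups did not overlap. Minidiscs (mnd), a leucine transporter, averaged 2218 ± 470 in smoke against 715 ± 166 in air (log2 change 1.63 ± 0.20, adjusted p = 0.00191). The major facilitator MFS3 averaged 2839.7 ± 357 in smoke against 1438 ± 209 in air (log2 change 0.98 ± 0.13, adjusted p = 0.00245). The amino acid transporter path averaged 7363 in smoke against 2226 in air (log2 change 1.84 ± 0.38, adjusted p = 0.0134) and JhI-21 1391 in smoke against 914 in air (log2 change 0.61 ± 0.16, adjusted p = 0.034). Of 15 subunits of the vacuolar proton pump tested, 4 were higher (26.7%) and none lower, with Vha100-2, a membrane subunit, at 13489, 13012, 16730 and 13850 in the smoke libraries, against 8029.8, 6889, 9154 and 7846 in the air libraries (log2 change 0.84 ± 0.11, adjusted p = 0.00295). Its relative Vha100-1 had a log2 change of 0.39 ± 0.08 (adjusted p = 0.0151), and this call was lost with the libraries rescaled to the same total. The proton pump count was 5 higher and 1 lower without air replicate 2, and 2 higher and 0 lower at the same total. Ion channels and cotransporters showed 2 higher and 2 lower of 34 (5.88% each), below the 10.9% and 7.09% of all genes. The ion channel count was 1 higher and 0 lower without smoke replicate 2 or 4, 1 higher and 1 lower without smoke replicate 3 or air replicate 1, 3 or 4, and 2 higher and 1 lower without smoke replicate 1. It was 5 higher and 5 lower without air replicate 2, and 0 higher and 4 lower at the same total. The chloride channel Best1 had a log2 change of 0.48 ± 0.09 (adjusted p = 0.0112), a call lost on rescaling to the same total. The sodium proton exchanger Nhe2 had one of -0.48 ± 0.11 (adjusted p = 0.0175, and 0.051 without smoke replicate 2 or smoke replicate 4). With 1 library left out, 7 of 8 omissions ended the call on JhI-21 (adjusted p up to 0.0892).

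Hydrolases of esters and epoxides had the largest share of rises among the function lists with at least 15 genes tested. Of 15 carboxylesterases and juvenile hormone hydrolases tested, 7 were higher (46.7%, against 10.9% of all genes) and none lower. Their median log2 change was 0.438. The epoxide hydrolase gene Jheh3 was at 8438, 9689.6, 9732 and 7045 in the smoke libraries, against 4932, 3798, 4649.8 and 4436 in the air libraries (log2 change 0.96 ± 0.13, adjusted p = 0.00267). The esterases alpha-Est8 and alpha-Est9 both rose. In the case of alpha-Est8 the mean was 1643 ± 193 in smoke against 907 ± 83.4 in air (log2 change 0.85 ± 0.11, adjusted p = 0.00214). The count of alpha-Est9 averaged 3373 ± 405 in smoke against 1820.5 ± 268 in air (log2 change 0.89 ± 0.13, adjusted p = 0.00384). The hydrolase count was 4 higher and 0 lower without smoke replicate 1, 2 or 3 or air replicate 4, 6 higher and 1 lower without air replicate 2, and 4 higher and 0 lower at the same total. Of 14 UDP-glycosyltransferases tested out of 35 in the table, 3 were higher (21.4%), with Ugt36E1, which conjugates small molecules with sugar, at 1247, 1382, 1274 and 853 in the smoke libraries, against 610.1, 316, 303 and 415 in the air libraries (log2 change 1.57 ± 0.24, adjusted p = 0.00507). The UDP-glycosyltransferase count was 1 higher without smoke replicate 2 or 4.

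Some genes of cell shape and attachment rose modestly. Of 60 genes of the actin cytoskeleton 9 were higher (15%, near the 10.9% of all genes) and none lower. The actin count was 5 higher and 0 lower without smoke replicate 2 or 3 or air replicate 4, 16 higher and 1 lower without air replicate 2, and 5 higher and 2 lower at the same total. Filamin (cher), an actin cross-linker, was at 47201, 58792, 61259 and 59375 in the smoke libraries, against 31491, 29721, 35574 and 30096 in the air libraries (log2 change 0.83 ± 0.12, adjusted p = 0.00327). The formin dia and the myosin Myo31DF both rose. The count of dia averaged 4261 ± 307 in smoke against 2362 ± 205 in air (log2 change 0.85 ± 0.09, adjusted p = 0.00091). Normalised counts of Myo31DF averaged 3892 ± 297 in smoke against 2179 ± 89 in air (log2 change 0.83 ± 0.08, adjusted p = 0.000513). Of 38 genes of microtubules and their motors, 8 were higher (21.1%) and none lower. The endosomal kinesin Klp98A was at 3065, 3004, 2901 and 3075 in the smoke libraries, against 1635, 1775, 1603 and 1575 in the air libraries, tight within groups (log2 change 0.87 ± 0.06, adjusted p = 0.000226). Spastin (spas), which severs microtubules, had a log2 change of 0.58 ± 0.08 (adjusted p = 0.00345), and the CLASP protein chb, which stabilises their plus ends, one of 0.55 ± 0.10 (adjusted p = 0.00704). The microtubule count was 7 higher and 1 lower without air replicate 1, 8 higher and 1 lower without air replicate 2, and 4 higher and 2 lower at the same total. Muscle markers had lower mean sums in smoke, 6900 against 11700 CPM, and their part in the actin count was not tested.

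Among 29 genes of adherens junctions and polarity, 9 were higher (31.0%) and 1 was lower (3.45%), against 10.9% and 7.09% of all genes. The junction count was 6 higher and 0 lower without smoke replicate 1, 2 or 4 or air replicate 4, 8 higher and 0 lower without air replicate 1, and 12 higher and 0 lower without air replicate 2. It was 5 higher and 1 lower at the same total. The junction scaffold pyd, the fly homologue of ZO-1, was at 17228, 17334, 18370 and 22533 in the smoke libraries, against 10883, 12531, 12084 and 11690 in the air libraries (log2 change 0.67 ± 0.11, adjusted p = 0.00515). The apical scaffold sdt and its partner crb, the apical determinant Crumbs, were both higher. Normalised counts of sdt averaged 5884 in smoke against 4226 in air (log2 change 0.48 ± 0.07, adjusted p = 0.00513). Mean counts of crb were 9342 in smoke against 6627 in air (log2 change 0.51 ± 0.13, adjusted p = 0.0284). The planar polarity gene dgo had a log2 change of 0.76 ± 0.08 (adjusted p = 0.0013), and stan, a cadherin of the same pathway, one of -0.62 ± 0.17 (adjusted p = 0.0384). Attachment to the basement membrane showed 7 higher and none lower of 34 tested (20.6%), at a median of 0.307. The attachment count was 8 higher and 2 lower without air replicate 2. A called member was the integrin beta subunit mys at 10953 ± 418 in smoke against 7794 ± 777 in air (log2 change 0.50 ± 0.09, adjusted p = 0.00738). The adaptor stck, known as PINCH, averaged 2769.5 ± 155 in smoke against 2108 ± 118 in air (log2 change 0.39 ± 0.07, adjusted p = 0.00873), and the matrix proteins Ppn and Tig had log2 changes of 0.49 ± 0.10 and 1.16 ± 0.24 (adjusted p = 0.0125 and 0.0136). Septate junctions, the barrier between the cells, showed 2 higher and none lower of 30, below the share of all genes. The septate junction count was 1 higher and 0 lower without any 1 smoke library or air replicate 1, 3 or 4, and 1 higher and 2 lower at the same total. Single omissions of a library ended the calls on crb and stan (5 to 6 of 8 omissions, adjusted p up to 0.0952).

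Endosomal traffic contributed 10 higher and 2 lower genes of 67 (14.9% and 2.99%), near the share of all genes for rises. The endosomal count was 8 higher and 0 lower without smoke replicate 1, 3 or 4 or air replicate 3, 8 higher and 1 lower without smoke replicate 2 or air replicate 4, and 9 higher and 0 lower without air replicate 1. The SNARE genes Syx17 and Syx16 and the sorting factor ALiX averaged 369.6 in smoke against 249 in air, 495 in smoke against 325 in air and 4998 in smoke against 3394 in air (log2 changes 0.57 ± 0.09, 0.61 ± 0.10 and 0.55 ± 0.09, adjusted p = 0.00568, 0.00675 and 0.00598). No gene of the secretory route from endoplasmic reticulum to Golgi was called among 50 tested, where 2 were higher and none lower at an unadjusted p under 0.05 and edgeR called none. The secretory count was 5 higher without air replicate 2. N-glycosylation had no call among 20 (1 higher and 2 lower at an unadjusted p under 0.05, none by edgeR). The glycosylation count was 1 higher and 0 lower without air replicate 3, and 0 higher and 1 lower at the same total. Tetraspanins, membrane organisers, showed 4 higher and none lower of 22 (18.2%, against 10.9% of all genes). The tetraspanin count was 5 higher and 1 lower without air replicate 2. Of these Tsp42Ef, Tsp42El and Tsp74F had log2 changes of 0.70 ± 0.09, 0.96 ± 0.17 and 0.90 ± 0.17 (adjusted p = 0.00198, 0.00876 and 0.0112).

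Wound and cuticle hardening genes showed 8 higher and 2 lower of 21 tested (38.1% and 9.52%), with a median log2 change of 0.375. The shares over all genes were 10.9% and 7.09%. Called members included ple and the yellow genes given above. Pvr, the receptor of PDGF and VEGF type that acts in epidermal wound closure, was at 4665, 4833, 4788 and 5896 in the smoke libraries, against 2872, 3521, 3024 and 2979.6 in the air libraries (log2 change 0.70 ± 0.10, adjusted p = 0.0037). Its ligand Pvf1 averaged 1024 in smoke against 603 in air (log2 change 0.77 ± 0.17, adjusted p = 0.0187). The epithelial factor grh, which drives wound genes, was lower, 2646 in smoke against 3538 in air (log2 change -0.41 ± 0.10, adjusted p = 0.0211). The wound gene count was 5 higher and 0 lower without smoke replicate 4 or air replicate 4, 6 higher and 0 lower without smoke replicate 2 or 3, and 6 higher and 1 lower without air replicate 1. It was 10 higher and 4 lower without air replicate 2. The calls on Pvf1 and grh were each lost on leaving out 1 library in 3 to 4 of 8 cases (adjusted p up to 0.0605).

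Transcription factors of the bZIP, bHLH and related immediate response classes showed 10 higher and 2 lower of 35 tested (28.6% and 5.71%). The all-gene shares were 10.9% and 7.09%. Besides Xrp1, the bZIP factor Atf3 was at 8008, 7830.1, 8346 and 7290.1 in the smoke libraries, against 4135, 3011, 3789 and 3479.9 in the air libraries, without overlap (log2 change 1.13 ± 0.10, adjusted p = 0.000582), and the ETS factor Ets98B averaged 1725 ± 281 in smoke against 759.7 ± 40.9 in air (log2 change 1.17 ± 0.12, adjusted p = 0.000903). CrebB, the cyclic AMP responsive factor, averaged 3825 in smoke against 2473 in air (log2 change 0.63 ± 0.06, adjusted p = 0.000907). The transcription factor count was 8 higher and 0 lower without air replicate 1 or 4, 8 higher and 1 lower without smoke replicate 2 or 4, and 9 higher and 1 lower without smoke replicate 3 or air replicate 3. It was 14 higher and 5 lower without air replicate 2, and 9 higher and 5 lower at the same total. Of 12 clock genes tested, 4 were higher (33.3%, against 10.9% of all genes). The bZIP repressor vri was at 4732, 3389, 3313 and 4857 in the smoke libraries, against 2135, 2187, 1799.9 and 2665 in the air libraries (log2 change 0.88 ± 0.17, adjusted p = 0.0107). The clock repressor per averaged 59.6 ± 10.7 in smoke against 30.2 ± 9.39 in air (log2 change 0.99 ± 0.26, adjusted p = 0.0321). The clock count was 1 higher and 0 lower without smoke replicate 1, 2 or 4, 2 higher and 0 lower without smoke replicate 3 or air replicate 1, 3 or 4, and 2 higher and 1 lower at the same total. With 1 library left out, 6 of 8 omissions ended the call on per (adjusted p up to 0.0893).

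In signalling pathways, rises and falls occurred side by side. Of the ligands of the FGF receptor Heartless, pyr rose to 1141 ± 135 in smoke against 463 ± 95.1 in air (log2 change 1.32 ± 0.17, adjusted p = 0.00229). Its partner ligand ths fell to 14.3 ± 11.3 in smoke against 82.9 ± 33.9 in air (log2 change -2.62 ± 0.55, adjusted p = 0.0151), while their receptor htl was at 27.2 in smoke against 93.5 in air (log2 change -1.75 ± 0.39, adjusted p = 0.0177). The phosphatase csw, which transmits receptor tyrosine kinase signals, was at 7160.5, 8499, 8089.7 and 10464 in the smoke libraries, against 3756, 4902, 3468 and 3733 in the air libraries (log2 change 1.11 ± 0.14, adjusted p = 0.00245). The EGF receptor ligands vn and spi were lower, with log2 changes of -0.60 ± 0.13 and -0.38 ± 0.09 (adjusted p = 0.0169 and 0.0272). In the BMP pathway the inhibitory Smad Dad was at 3849, 3238, 3099 and 2778 in the smoke libraries, against 1661, 1469, 1441 and 1263 in the air libraries (log2 change 1.15 ± 0.12, adjusted p = 0.000962). The zinc finger gene shn averaged 3669.8 ± 224 in smoke against 1844 ± 244 in air (log2 change 1.00 ± 0.10, adjusted p = 0.000903). The BMP target repressor brk fell to 351 in smoke against 685 in air (log2 change -0.98 ± 0.16, adjusted p = 0.00546), and the ligand dpp averaged 325 in smoke against 487 in air with overlapping groups (log2 change -0.57 ± 0.16, adjusted p = 0.0374). The FGF and EGF list held 5 higher and 4 lower of 30 (16.7% and 13.3%), the BMP and activin list 4 and 3 of 22 (18.2% and 13.6%). Among all genes 10.9% were higher and 7.09% lower. The FGF and EGF count was 2 higher and 2 lower without air replicate 4, 2 higher and 3 lower without smoke replicate 4, and 3 higher and 2 lower without smoke replicate 2. It was 3 higher and 3 lower without smoke replicate 1 or 3, 3 higher and 4 lower without air replicate 3, and 2 higher and 5 lower at the same total. The BMP count was 3 higher and 1 lower without smoke replicate 2 or air replicate 1, and 4 higher and 1 lower without smoke replicate 3 or 4 or air replicate 4. Single omissions of a library ended the calls on htl, spi and dpp (3 to 6 of 8 omissions, adjusted p up to 0.099).

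The Notch list held 4 higher and 6 lower of 30 (13.3% and 20%), and the Wnt and Hedgehog list 4 higher and 7 lower of 37 (10.8% and 18.9%). Over all genes the shares were 10.9% and 7.09%. With all libraries, rises in both lists were near the share of all genes and falls were above it. E(spl)mbeta-HLH, a repressor induced by Notch, was at 2002, 1731, 2273 and 2277 in the smoke libraries, against 900, 1318, 1138 and 1071 in the air libraries (log2 change 0.91 ± 0.14, adjusted p = 0.0043), while its relatives E(spl)m8-HLH and E(spl)m7-HLH were lower at 20.3 in smoke against 65.4 in air and 51.98 in smoke against 85.1 in air (log2 changes -1.69 ± 0.40 and -0.71 ± 0.21, adjusted p = 0.0231 and 0.049). The Wnt receptor fz4 and the Wnt secretion factor wls were both lower. Mean counts of fz4 were 503 ± 26.8 in smoke against 703 ± 50.3 in air (log2 change -0.48 ± 0.08, adjusted p = 0.00616). For wls the mean was 458 ± 38.8 in smoke against 737 ± 136 in air (log2 change -0.67 ± 0.14, adjusted p = 0.0147). The ligand Wnt6 was higher, 1092 in smoke against 566 in air, and Wnt2 lower, 11.6 in smoke against 84.4 in air (log2 changes 1.01 ± 0.23 and -2.93 ± 0.64, adjusted p = 0.02 and 0.0171). The Notch count was 3 higher and 1 lower without air replicate 4, 3 higher and 2 lower without smoke replicate 2 or 3, and 4 higher and 1 lower without air replicate 1. It was 4 higher and 2 lower without smoke replicate 4, and 1 higher and 8 lower at the same total. The Wnt and Hedgehog count was 1 higher and 3 lower without smoke replicate 2, 1 higher and 7 lower without smoke replicate 1, and 2 higher and 3 lower without smoke replicate 3 or air replicate 4. It was 2 higher and 4 lower without smoke replicate 4 or air replicate 1, 2 higher and 7 lower without air replicate 3, and 1 higher and 8 lower at the same total. The disc marker sums given above were lower in smoke, and their part in these counts was not tested. Ecdysone response genes showed 4 higher and 1 lower of 25 (16% and 4%, against 10.9% and 7.09% of all genes). The ecdysone count was 2 higher and 0 lower without smoke replicate 1, 3 or 4 or air replicate 1 or 4, 3 higher and 0 lower without smoke replicate 2, and 3 higher and 2 lower without air replicate 3. It was 7 higher and 1 lower without air replicate 2. The receptor EcR was at 10654, 8422, 8821 and 9178 in the smoke libraries, against 6236, 6211, 5018 and 6017 in the air libraries (log2 change 0.66 ± 0.10, adjusted p = 0.00532). The gene shd, which makes active 20-hydroxyecdysone, averaged 377 ± 90.96 in smoke against 110.1 ± 45.01 in air (log2 change 1.83 ± 0.33, adjusted p = 0.00796). The calls on E(spl)m8-HLH, E(spl)m7-HLH and Wnt6 were each lost on leaving out 1 library in 3 to 6 of 8 cases (adjusted p up to 0.119).

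**Figure D5:**
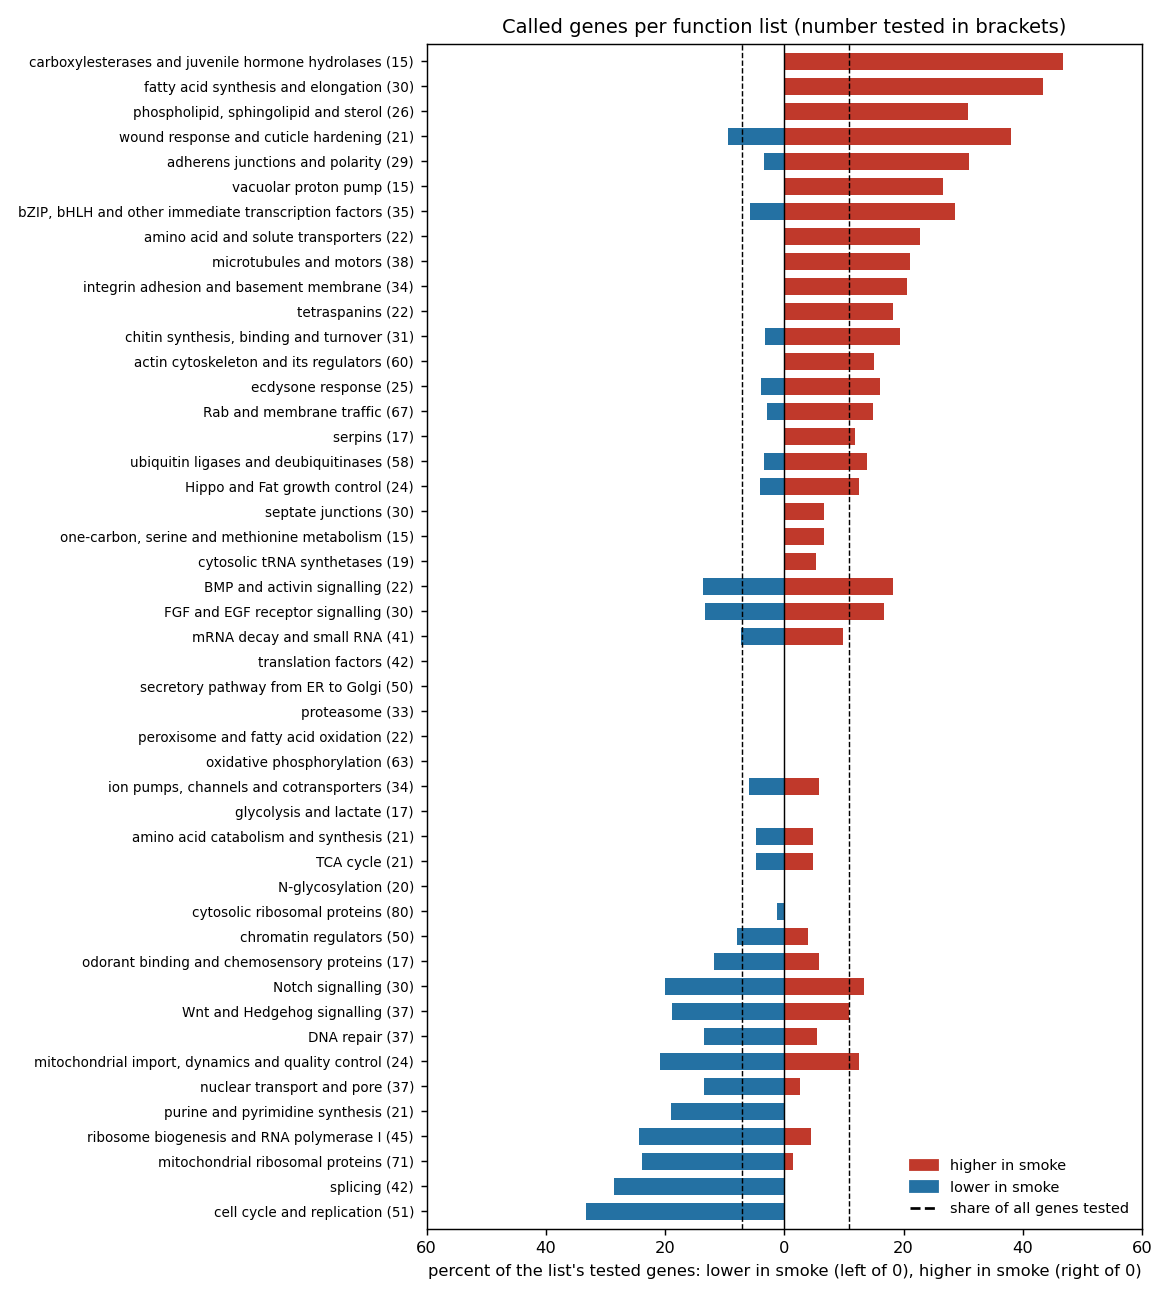
Share of tested genes called higher in smoke (red, right of 0) and lower in smoke (blue, left of 0) for each function list with at least 15 genes tested, ordered by the difference of the shares. Dashed lines mark the shares among all genes tested, 10.9% higher and 7.09% lower. Carboxylesterases (46.7%) and the list drawn as fatty acid synthesis and elongation (43.3%) reach farthest to the right. That list also holds droplet coat proteins and lipases. Cell cycle (33.3%) and splicing (28.6%) reach farthest to the left.

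Some genes of growth and of the nucleus fell in small steps. Cell cycle and replication genes showed 17 lower and none higher of 51 tested (33.3%, against 7.09% of all genes), with a median log2 change of -0.461. The kinase gene Cdk2, which drives entry into S phase, was at 172, 196, 182 and 172 in the smoke libraries, against 406, 296, 386 and 409.7 in the air libraries (log2 change -1.04 ± 0.12, adjusted p = 0.00168). Cdk1 and the replication clamp PCNA were both lower. For Cdk1 the mean was 389.9 ± 74.9 in smoke against 804 ± 153 in air (log2 change -1.04 ± 0.17, adjusted p = 0.00595). In the case of PCNA the mean was 1095 ± 144 in smoke against 1957 ± 275 in air (log2 change -0.84 ± 0.13, adjusted p = 0.00475). The cell cycle count was 31 lower without air replicate 2. Purine and pyrimidine synthesis had 4 lower and none higher of 21 (19.0%). The nucleotide synthesis count was 2 lower without smoke replicate 3 or 4 or air replicate 1, 3 or 4. Among these were both subunits of ribonucleotide reductase, which makes the precursors of DNA. RnrS was at 1377, 1386, 1469.6 and 1113 in the smoke libraries, against 1959, 2057, 2139 and 1968 in the air libraries (log2 change -0.61 ± 0.09, adjusted p = 0.00494) and RnrL changed by -0.42 ± 0.11 (adjusted p = 0.029). DNA repair held 2 higher and 5 lower of 37 (5.41% and 13.5%, against 10.9% and 7.09% of all genes). The nuclease gene Fen1 and the checkpoint kinase gene grp both fell. In the case of Fen1 the mean was 236 ± 25.3 in smoke against 399 ± 12.4 in air (log2 change -0.76 ± 0.10, adjusted p = 0.00223). The count of grp averaged 1455 ± 87.3 in smoke against 2144 ± 183 in air (log2 change -0.56 ± 0.08, adjusted p = 0.00413). Irbp, the fly Ku70, which binds broken ends, rose to 576 ± 24.8 in smoke against 370.3 ± 26.8 in air (log2 change 0.64 ± 0.08, adjusted p = 0.00207). The repair count was 1 higher and 4 lower without smoke replicate 2 or 3 or air replicate 3, 1 higher and 5 lower without smoke replicate 1 or air replicate 4, and 1 higher and 7 lower at the same total. The part of disc cells, which divide, in the cell cycle count was not tested. With 1 library left out, 6 of 8 omissions ended the call on RnrL (adjusted p up to 0.072).

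Of 42 splicing genes tested, 12 were lower (28.6%, against 7.09% of all genes) and none higher, with a median log2 change of -0.228. The splicing count was 7 lower without smoke replicate 2. The U1 component snRNP-U1-70K was at 1092, 1137, 1098 and 1059 in the smoke libraries, against 1702, 2114, 1811 and 1662 in the air libraries (log2 change -0.73 ± 0.09, adjusted p = 0.00175). The core protein SmB was at 916, 910.3, 901 and 913 in the smoke libraries, against 1208, 1379.9, 1358 and 1256 in the air libraries, nearly equal in all smoke libraries (log2 change -0.51 ± 0.07, adjusted p = 0.00235). Other called members included the core proteins SmF, SmD1, SmE and SmD2, with log2 changes of -0.53, -0.53, -0.34 and -0.22. In decay of messenger RNA, the nonsense-mediated decay genes Smg5 and Smg6 both rose. The count of Smg5 averaged 4338 ± 299 in smoke against 2634 ± 205 in air (log2 change 0.72 ± 0.08, adjusted p = 0.00157). Normalised counts of Smg6 averaged 3064 ± 359 in smoke against 1840.5 ± 286 in air (log2 change 0.74 ± 0.13, adjusted p = 0.00778). The list held 4 higher and 3 lower of 41, shares near those of all genes. The decay count was 2 higher and 1 lower without smoke replicate 1, 3 or 4 or air replicate 4, 2 higher and 3 lower without air replicate 3, and 3 higher and 1 lower without smoke replicate 2. It was 4 higher and 1 lower without air replicate 1, and 2 higher and 6 lower at the same total. Single omissions of a library ended the calls on SmE and SmD2 (3 to 8 of 8 omissions, adjusted p up to 0.12).

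Ribosome biogenesis and RNA polymerase I genes showed 11 lower and 2 higher of 45 (24.4% and 4.44%), with a median of -0.276. The ribosome biogenesis count was 1 higher and 5 lower without smoke replicate 3 or 4, 1 higher and 6 lower without smoke replicate 1 or air replicate 3, and 1 higher and 8 lower without air replicate 1 or 2. It was 2 higher and 6 lower without air replicate 4, and 1 higher and 18 lower at the same total. The exosome subunit Ski6 was at 151, 145, 170 and 176 in the smoke libraries, against 256, 274, 297 and 293 in the air libraries (log2 change -0.80 ± 0.10, adjusted p = 0.00227). The nucleolar gene vito averaged 228 ± 16.1 in smoke against 349 ± 30.2 in air (log2 change -0.61 ± 0.10, adjusted p = 0.00532). Nop17l was higher, 2086 ± 208 in smoke against 1306 ± 127 in air (log2 change 0.68 ± 0.10, adjusted p = 0.00407). Of 80 cytosolic ribosomal protein genes tested, 1 was lower and none higher, at a median of -0.000871. The gene called was RpS15Ab, at 526 in smoke against 692 in air (log2 change -0.39 ± 0.07, adjusted p = 0.00652), whose reads may be shared with its near copy. The ribosomal protein count was 2 lower without smoke replicate 2, and 2 lower at the same total. Among 42 translation factors none was called (5 higher and 2 lower at an unadjusted p under 0.05, none by edgeR). The translation factor count was 2 higher and 0 lower without air replicate 2, and 0 higher and 1 lower at the same total. In all, 1 of 19 cytosolic tRNA synthetases was higher (5.26%, below the 10.9% of all genes), HisRS, at 3716 in smoke against 2938 in air (log2 change 0.34 ± 0.10, adjusted p = 0.0429). The synthetase count was 0 higher without any 1 smoke library or air replicate 1, 3 or 4, 5 higher without air replicate 2, and 0 higher at the same total. Mitochondrial ribosomal proteins had 17 lower and 1 higher of 71 (23.9% and 1.41%), with mRpS16 at 260.0 ± 13.5 in smoke against 369.8 ± 19.8 in air (log2 change -0.51 ± 0.08, adjusted p = 0.00548). Among all genes 7.09% were lower and 10.9% higher. The mitochondrial ribosomal count was 1 higher and 9 lower without smoke replicate 1 or 3, 1 higher and 11 lower without smoke replicate 4 or air replicate 3 or 4, and 0 higher and 34 lower at the same total. The call on HisRS was lost on leaving out 1 library in 7 of 8 cases (adjusted p up to 0.106).

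Mitochondrial import, dynamics and DNA maintenance showed 3 higher and 5 lower of 24 (12.5% and 20.8%, against 10.9% and 7.09% of all genes). The import count was 1 higher and 2 lower without smoke replicate 3, 1 higher and 3 lower without smoke replicate 1 or air replicate 3, and 2 higher and 3 lower without smoke replicate 4. It was 3 higher and 3 lower without air replicate 4, and 0 higher and 5 lower at the same total. The import pore gene Tom40 was at 1210.4, 1318, 1276 and 1227 in the smoke libraries, against 1623, 1778, 1689 and 1610.2 in the air libraries (log2 change -0.41 ± 0.06, adjusted p = 0.00494), and TFAM, which packages mitochondrial DNA, averaged 645 ± 39.4 in smoke against 861 ± 49.7 in air (log2 change -0.42 ± 0.08, adjusted p = 0.00904). Opa1, which fuses inner membranes, was higher at 3350.1 ± 166 in smoke against 2672 ± 65.6 in air (log2 change 0.33 ± 0.06, adjusted p = 0.0104), a call lost with the libraries rescaled to the same total. In nuclear transport, with 1 higher and 5 lower of 37 (2.7% and 13.5%), RanGAP, which drives the cycle of the carrier Ran, averaged 1015 ± 59.99 in smoke against 1481 ± 137 in air (log2 change -0.54 ± 0.09, adjusted p = 0.0052). The nuclear transport count was 0 higher and 3 lower without any 1 smoke library, 0 higher and 4 lower without air replicate 3 or 4, and 0 higher and 5 lower without air replicate 1. It was 2 higher and 3 lower without air replicate 2, and 0 higher and 10 lower at the same total. Oxidative phosphorylation had no call among 63 genes (none higher and 5 lower at an unadjusted p under 0.05, none by edgeR). The oxidative phosphorylation count was 1 lower without smoke replicate 2, 2 lower without air replicate 2, and 5 lower at the same total. No call was made either for the proteasome with 33 genes (none higher and 1 lower at an unadjusted p under 0.05) and for peroxisomes and fatty acid oxidation with 22 (4 higher and 2 lower), where edgeR also called none. The peroxisome count was 1 higher and 0 lower without air replicate 2 or 4, and 0 higher and 1 lower at the same total. Ubiquitin ligases and deubiquitinases showed 8 higher and 2 lower of 58 (13.8% and 3.45%), with rises near the share of all genes. Usp32 was at 1566 ± 115 in smoke against 1039 ± 100.3 in air and Usp8 at 1085 ± 86.1 in smoke against 783 ± 26.3 in air (log2 changes 0.59 ± 0.09 and 0.47 ± 0.08, adjusted p = 0.0049 and 0.00573). The ubiquitin count was 5 higher and 1 lower without smoke replicate 2, 3 or 4 or air replicate 1, 6 higher and 1 lower without air replicate 3 or 4, and 8 higher and 1 lower without air replicate 2. It was 4 higher and 4 lower at the same total.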

How the data were processed

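RNA sequencing of isolated larval trachea was analysed in the 8 female libraries, 4 smoke and 4 air, grouped by the sex and treatment in the labels. Per the labels' protocols, the NEBNext Ultra RNA kit was used and single reads of 75 bp were taken. The submitters' processing notes name STAR 2.6.0c and DESeq2 1.22.2 without their roles. The only genome build named there is human while the gene identifiers are FlyBase ones, so no coordinates are given. The sources used here name no counter, strand setting or annotation. If strand was ignored, reads of genes that overlap, antisense ones included, cannot be told apart.

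The authors deposited a normalised signal per gene, which by its values is the read count divided by 1 size factor per library (0.750 to 1.30), with 17559 genes. All values came out as whole reads within 0.01 read (100%), and the recovered counts served an added count test. The authors also deposited a comparison table whose log2 fold change, statistic (a score) and p-value columns, per the file headers, carry DESeq2 names. From it only the adjusted p-values and the signs of the fold changes are used. Of 17559 identifiers, 17252 were named by the Ensembl annotation, which also gave exon lengths, 95 by the authors' table, and 212 had no name. Pairs of libraries within a group had a chi-square per degree of freedom of 23.8 to 318, far above sampling noise, and none was a copy.

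Genes that reached a value of 10 in 4 or more libraries were compared with limma 3.58.1 (trend, R 4.3.3) on log2(value + 1), two-sided, with Benjamini-Hochberg adjustment over all 8877 genes, and called at 0.05. Fold changes on this scale understate those of low genes. A ± beside a mean is the SD over 4 libraries, and beside a log2 change it is the standard error. In a simulation with the mean levels and depths of these libraries, limma called 50 of 50 genes raised 4-fold, 38 of 50 raised 2-fold, 35 of 50 lowered 2-fold, 50 of 50 lowered 4-fold and 14 unchanged genes. The simulated counts were negative binomial with the same fixed dispersion for every gene and held no outlying library. These figures therefore check the fit and do not measure recovery or false calls in the real libraries.

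The lists (57 of functions, 11 of stress responses and 8 of tissues), the rules and the genes named were chosen with earlier results of these data known, and lists are described by counts with no test. Some planned list members could not be matched to a single gene by symbol or synonym and are in no count. Among them were btl, wg, br, Psn, trol and wupA. Named were the largest rises and falls in fold (15 each) and in level per kb (8 each) outside the stress and tissue lists, 3 rises and 3 falls with CG numbers, the 3 strongest calls of each function list with at least 3 calls, roX1, roX2 and the 6 highest genes. Candidates for the first 3 rules had groups that do not overlap and a higher mean of at least 100, and were outside the Hsp, Gst, Cyp, Mtn and Prx families. Further list members were named after their values were seen, and some genes are not reported here. The alternatives tried were other pseudocounts (0.5 and 5), other filters (none, or a minimum of 50), rescaling to the same upper quartile or total, a replicate block, the naming style as a term or as a split, edgeR 4.0.16 (quasi-likelihood, TMM) on recovered reads, and leaving out each library.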

Additional observations from a re-analysis of the deposited data

Results flagged for a closer look

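In 318 groups of 4 libraries (159 named genes in smoke and in air), 13 had 1 library set apart from the other 3 by Dixon's test, where chance alone flags about 1 in 20 groups. Air replicate 2 and smoke replicate 4 each accounted for 4 of these, smoke replicate 1 for 3 and air replicate 3 for 2. Values below are normalised counts.

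Smoke replicate 4 was the highest of its group for e (4321, others 435.5 to 868.6), CG6026 (1065, others 279.5 to 413.3), SCAP (3095, others 2679 to 2721) and Pvr (5896, others 4665 to 4833). Smoke replicate 1 was the highest for fax (6707, others 4239 to 4538) and Gasp (21050, others 19500 to 19650) and the lowest for Tsp42Ef (2495, others 2990 to 3027).

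Air replicate 2 was the highest of its group for e (356.5, others 36.44 to 40.33) and CG6026 (187, others 19.88 to 32.47), and the lowest for Myo31DF (2045, others 2219 to 2228) and pyr (320.4, others 508.8 to 511.7). Air replicate 3 was the highest for Usp15-31 (766.4, others 687.6 to 696.9) and the lowest for Smg5 (2331, others 2706 to 2777).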

How the results depend on the processing

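Against 1599 calls (970 higher and 629 lower) with the settings reported, pseudocounts of 0.5 and 5, no filter, a minimum of 50, the same upper quartile and edgeR gave 1377 to 1655 calls, of which edgeR shared 1526. Rescaling to the same total gave 644 higher and 1042 lower. Whether the replicate numbers pair the libraries was not settled. Correlations of deviations between same-numbered smoke and air libraries were 0.171, 0.289, 0.421 and -0.0977, and smoke replicate 4 correlated best with air replicate 2 (0.229), so no pairing was assumed. The replicate block gave 2504 calls, 1374 higher and 1130 lower, with 33 lower mitochondrial ribosomal protein genes and 24 lower ribosome biogenesis genes, and the naming style as a term 2514, of which 1115 were lower. Replicates 1 and 2 alone gave 12 calls, 12 higher and 0 lower, and left 0 of the 36 function lists with at least 3 calls, in a fit with 2 libraries a group. At an unadjusted p under 0.05 this fit had 1743 genes. Replicates 3 and 4 alone gave 799 calls, 567 higher and 232 lower. Leaving out 1 library gave 1005 to 2009 calls, 659 to 1153 higher, 345 to 856 lower and 29 to 42 such lists. No called gene changed sign in any alternative that fitted it. Uncalled genes did, roX1 to -0.11 within replicates 1 and 2 and CG13678 to -0.10 within replicates 3 and 4.

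Of 153 named genes that were called, 26 lost the call when some single library was left out, and 17 in other fits of all 8 libraries. The 17 were e, to, klu and Ugt35C1 with edgeR, CNBP, Nlp, mey, ImpE1, klu, to, per, Ugt35C1 and Ir51b without the filter, Best1, Vha100-1, Opa1, Apc, mib1, sgg, to and Ugt35C1 at the same total, and CG7465, ImpE1, to and Ugt35C1 under the block. The causes were not tested. The 17 included genes of low level, such as Ugt35C1 (42.8 in smoke against 13.8 in air), and of high level, such as CNBP (33172 in smoke against 40857 in air). With 4 libraries a group, what can be called is limited.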

Other observations

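Some small nucleolar RNAs, which guide the chemical modification of ribosomal RNA, fell. They numbered 258, of which 26 were tested and 10 were called lower (limma, adjusted p under 0.05). The filter on low values touches this count, because 7 of the 26 tested, and 5 of the 10 called, reached the minimum of 10 in every air library and in no smoke library. No share or median over them is therefore set against other genes. edgeR called 11 lower, and single omissions gave 5 to 8 lower, with 7 without air replicate 2. Of the called RNAs, those with the highest counts were snoRNA:Psi18S-531, which averaged 87.5 in smoke against 137 in air (log2 change -0.64 ± 0.13, adjusted p = 0.0148), and snoRNA:Psi28S-291, which averaged 26.9 in smoke against 78.3 in air (log2 change -1.49 ± 0.26, adjusted p = 0.00767). In both, every smoke library was below every air library. Many of these RNAs lie in introns of host genes, so that reads of unspliced host RNA may be counted with them, and this was not tested. Long and other noncoding RNAs, with 157 tested, showed 14 higher and 10 lower (8.92% and 6.37%), near the 10.9% and 7.09% of all genes.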
